A study of Homo sapiens with 6 samples.

Results

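Transcripts of the 6 genes that encode the negative elongation factor (NELF) and the DRB sensitivity-inducing factor (DSIF) were examined in H9 cells treated with the CDK9 inhibitor AZD4573 or with vehicle. The genes were taken by name, 1 row each, out of the 61541 genes of the count table: NELFA, NELFB, NELFCD and NELFE for NELF, and SUPT4H1 and SUPT5H for DSIF. All 6 passed the filter on low counts, which left 17678 genes to be tested.

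As background, NELF and DSIF bind RNA polymerase II (RNAP2) shortly after it starts a transcript and hold it near the promoter. CDK9, the kinase of positive transcription elongation factor b (P-TEFb), phosphorylates NELF, the DSIF subunit SPT5 and the RNAP2 tail. NELF then leaves the polymerase, while DSIF stays and travels with it. NELFA contacts the polymerase, NELFB and NELFCD form the scaffold between NELFA and NELFE, and NELFE binds RNA. SUPT5H encodes SPT5, the large DSIF subunit, and SUPT4H1 encodes SPT4, its small partner. AZD4573 acts on the kinase, so that the transcript levels below do not measure the phosphorylation of these proteins.

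The series holds 6 libraries of RNA from H9, labelled as poly(A) RNA although the study's methods describe ribosomal depletion. H9 is an established cutaneous T-cell lymphoma line, with the genotype labelled WT, and 3 libraries are of cells given DMSO and 3 of cells given AZD4573 for 4 h. The dose is stated by the study but not in the labels, and is not repeated here. The labels give no time for the DMSO cells and no word on whether replicates were separate cultures, so that p-values measure the spread between these libraries, which may be technical. All libraries come from 1 cell line. Total counts ranged from 70367303 to 76571157 with DMSO and from 52101868 to 63795185 with AZD4573. The members had between 1508 and 20740 counts per library. Values are given as CPM, the usual per-library scaling of read counts to a common total, with edgeR's TMM factors applied. Of 10 T-cell markers, 8 were above 1 CPM in every library, with CD3D, CD3E, CD3G, LCK and ZAP70 above 100 CPM, while CD2 and CD7 stayed below 1 CPM. Of 12 markers of B cells, myeloid, epithelial and endothelial cells, 3 were above 1 CPM in every library, namely CD79A (55.0 to 98.4 CPM), EPCAM (132 to 167 CPM) and CDH1 (3.60 to 4.87 CPM). The summed level of the T-cell markers was 1345 to 1350 CPM with DMSO and 1910.5 to 2023 CPM with AZD4573. PTPRC, which leukocytes of all kinds express, went from 412 to 415 CPM to 826 to 911 CPM and made up most of that gain, whereas ZAP70 (282 to 312 and 282 to 290.0 CPM) overlapped between groups and CD28 was lower with AZD4573 (5.38 to 6.29 and 4.19 to 4.44 CPM). The sum of the 3 B-cell markers, nearly all CD79A, was 55.4 to 61.3 CPM with DMSO and 89.1 to 99.0 CPM with AZD4573, and that of the 3 epithelial markers was 153 to 172 and 136 to 141 CPM. The myeloid and endothelial markers stayed below 0.3 CPM each, and VWF was at 0 counts throughout. The part of these levels in the results was not tested.

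The stretches below show the starts of these genes, with a short motif chosen for each pair of members that holds it. Other choices of motif would group the members differently. They come from RefSeq promoter windows on GRCh38.p14, which span 250 bases before to 50 bases after a start and were found for all 6 members. Each line gives 30 bases 5′ to 3′ on the strand of the gene, with the motif in capitals. NELFA and SUPT5H hold AAGATGGC, the core of a site for the factor YY1, 13 bases into the NELFA transcript and 99 bases before the SUPT5H start. NELFB and NELFCD hold GCATGCGC, part of the palindrome known for NRF1, at 2 places that overlap on opposite strands, 141 bases before the NELFB start and 4 bases before the NELFCD start. NELFE and SUPT4H1 each hold CCGGAAG, the core known for ETS factors, at 2 places, of which the NELFE stretch shows the nearer one, on the other strand.
NELFA, chr4:2008944-2008973, minus strand: cgctttcccccAAGATGGCgtccatgcggg
SUPT5H, chr19:39445472-39445501, plus strand: ctgcctctctcAAGATGGCgacctggaagt
NELFB, chr9:137255176-137255205, plus strand: gaccgggtggGCGCATGCGCgctgggctgg
NELFCD, chr20:58981242-58981271, plus strand: tccccgcctcGCGCATGCGCcgcgctcgct
NELFE, chr6:31959080-31959109, minus strand: agtagaggcaaCTTCCGGtacagccccgcc
SUPT4H1, chr17:58352226-58352255, minus strand: aCCGGAAGaggaagtctaagcgCCGGAAGt

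The motifs were chosen after the sequences had been read, and each was searched on both strands. Of 27305 RefSeq promoter windows of this length, 3.03% hold AAGATGGC, 3.27% hold GCATGCGC (1.48% at 2 or more places) and 1.88% hold CCGGAAG at 2 or more places. Among the 11429 tested genes with a window, as the members are, these shares were higher, at 5.24%, 5.33% (2.48%) and 3.71%. NELFA also holds CCGGAAG once, as do 10.7% of the windows at least once. The GC box GGGCGGGG was found in the windows of NELFB, NELFCD, NELFE and SUPT4H1 and in 22.9% of all windows, whereas none of the 6 windows holds TATAAA, which 12% of all windows do, or GATTGG, which 15.7% do. Of the 11429 tested genes, 18.8% hold CCGGAAG at least once, 37.3% GGGCGGGG, 6.01% TATAAA and 19.7% GATTGG. The windows were 61.7% (SUPT5H) to 79.3% (NELFB) G and C. A match is a run of letters and not a measured binding site.

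Upon AZD4573 treatment, the 6 subunits did not move together. NELFA transcripts fell 2.82-fold, SUPT5H and NELFCD fell by less than 1.2-fold, and NELFE, SUPT4H1 and NELFB rose by 1.20-, 1.32- and 1.08-fold. By edgeR's quasi-likelihood test, with p adjusted across the 17678 genes by the Benjamini-Hochberg method and a threshold of 0.05, 3 members were lower, where 37.4% of all genes tested were called lower, and 3 were higher, where 37.3% were called higher. All 6 members were thus called in either direction, where 74.7% of all genes tested were. With a fold change of at least 1.5 as well, NELFA alone was called by TMM, where 23.7% of all genes were lower and 22.7% higher by that rule. The AZD4573 libraries lay wholly beyond the DMSO libraries for all 6 members, as they did for 77.8% of all genes tested. Most genes tested were called in these libraries, so that the members' counts are read against a high background. The rises of NELFE, SUPT4H1 and NELFB turn into falls when libraries are scaled to mitochondrial mRNAs, as described further on. By that scaling the log2 fold changes of SUPT5H (-0.96), NELFCD (-0.92) and NELFB (-0.63) also go beyond a 1.5-fold fall.

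**Figure D1:**
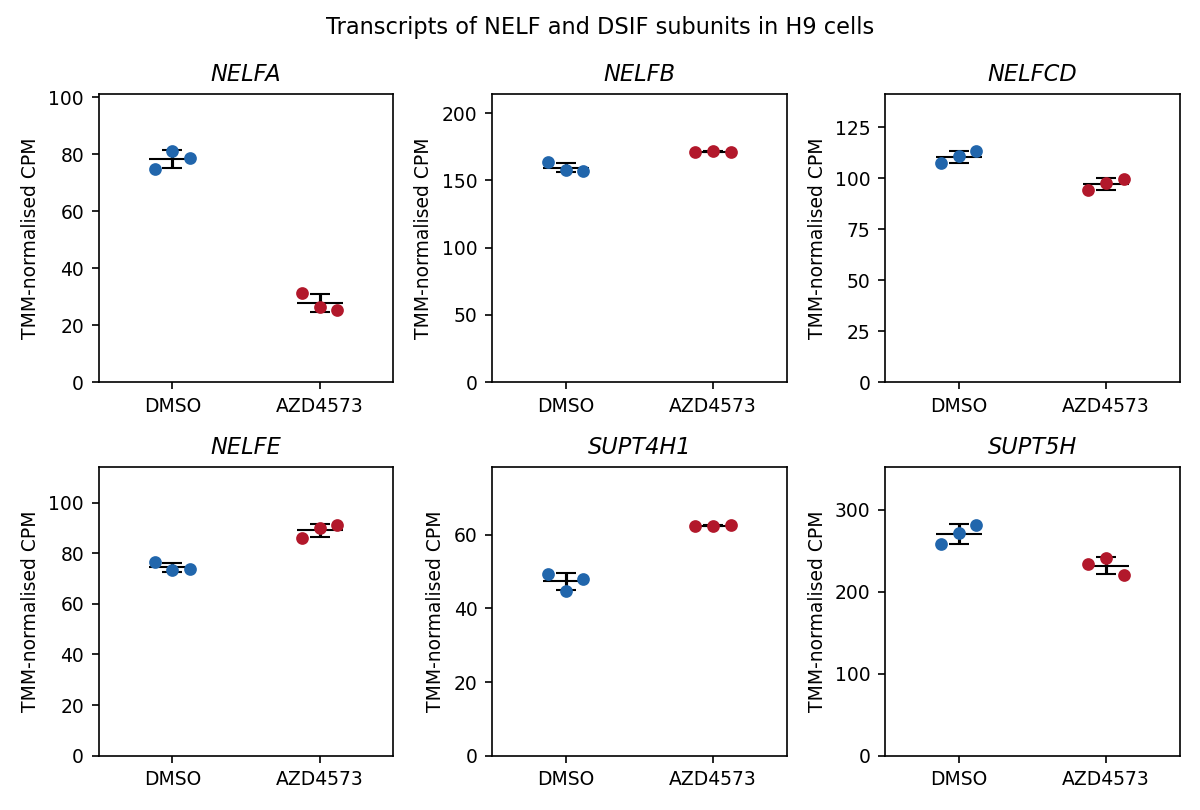
TMM-normalised CPM (y axis, from 0) of the 6 subunit transcripts in each DMSO library (blue) and each AZD4573 library (red), with the mean and SD of 3 libraries as black marks. NELFA drops from a mean of 78.1 to 27.7 CPM, and the other 5 genes shift by at most 1.32-fold.

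NELFA (ENSG00000185049), a subunit that contacts the polymerase, lies on chromosome 4 of GRCh38 from 1982717 to 2041903 on the minus strand, and its reference transcript has 11 exons. It was at 74.8, 81.0 and 78.6 CPM with DMSO, and AZD4573 libraries were at 31.4, 26.5 and 25.3 CPM. Every treated library stood far below every DMSO library, with gaps wider than the spread within either group. The mean went from 78.1 ± 3.13 to 27.7 ± 3.25 CPM (SD, n = 3). The log2 fold change was -1.50 (standard error 0.0724, 95% confidence interval -1.65 to -1.34; edgeR, adjusted p = 6.86e-10). Of the 17678 genes tested, 1142 (6.46%) had a lower log2 fold change. Its reference transcript shares 19 of 2198 exon bases with MIR943, which had 0 counts in each library.

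SUPT5H (ENSG00000196235, chromosome 19 from 39436156 to 39476670, plus strand), the DSIF subunit that CDK9 phosphorylates, had the highest counts of the members. It was at 258, 272 and 282 CPM with DMSO and at 234, 241 and 220.2 CPM with AZD4573. The lowest DMSO library lay above the highest AZD4573 library, by a margin narrower than the spread within each group. The means were 270.3 ± 12.04 and 232 ± 10.6 CPM (SD, n = 3), or a log2 fold change of -0.22 (standard error 0.0472, 95% confidence interval -0.32 to -0.12; edgeR, adjusted p = 0.000780). Its 3678 reference exon bases were shared with no other gene.

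SUPT4H1 (ENSG00000213246, chromosome 17 from 58345175 to 58353093, minus strand), the small partner of SPT5, went the other way. It was at 49.3, 44.7 and 48.1 CPM with DMSO and at 62.5, 62.3 and 62.7 CPM with AZD4573. The treated libraries all stood above the DMSO libraries, and they differed by less than the counting error of their 3179 to 3827 counts. The means were 47.4 ± 2.36 and 62.5 ± 0.203 CPM (SD, n = 3), and the log2 fold change was 0.40 (standard error 0.0503, 95% confidence interval 0.29 to 0.51; edgeR, adjusted p = 7.46e-06). Its counts are uncertain, since 1460 of its 1488 reference exon bases lie in exons of other genes. TSPOAP1-AS1, on the opposite strand, shares 169 of these bases and rose from 68.7 ± 0.737 to 108 ± 1.14 CPM (SD, n = 3), although it turned to a log2 fold change of -0.09 under mitochondrial scaling. The overlapping gene ENSG00000285897 on the same strand shares 1325 bases and had 56 to 111 counts per library. How reads were divided between these genes was not tested, and counting ignored the strand. The pseudogenes SUPT4H1P1 and SUPT4H1P2 had 0 counts in each library, which allows up to 0.0576 CPM in the smallest library, taken as 3 counts of its total.

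NELFE (ENSG00000204356, chromosome 6 from 31952087 to 31959038, minus strand), the RNA-binding subunit and a substrate of CDK9, was at 76.4, 73.3 and 73.7 CPM with DMSO. It was at 86.2, 89.8 and 91.3 CPM with AZD4573, so that each treated library lay above each DMSO library. The means were 74.5 ± 1.69 and 89.1 ± 2.60 CPM (SD, n = 3), or a log2 fold change of 0.26 (standard error 0.0448, 95% confidence interval 0.16 to 0.36; edgeR, adjusted p = 0.000141). None of its 1445 reference exon bases was shared with another gene.

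Of the scaffold subunits, NELFCD (ENSG00000101158, chromosome 20 from 58981208 to 58995133, plus strand) was at 107, 111 and 113 CPM with DMSO and at 94.2, 97.9 and 99.8 CPM with AZD4573. Its means of 110.5 ± 2.90 and 97.3 ± 2.85 CPM (SD, n = 3) gave a log2 fold change of -0.18 (standard error 0.0439, 95% confidence interval -0.28 to -0.09; edgeR, adjusted p = 0.00189). Annotated CTSZ exons on the opposite strand cover 2123 of its 2237 reference exon bases. CTSZ, a lysosomal protease gene, was far lower than NELFCD, at 7.60 ± 1.41 CPM with DMSO and 3.87 ± 0.250 CPM with AZD4573 (SD, n = 3). How reads in the shared exons were divided between these genes was not tested.

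NELFB (ENSG00000188986, chromosome 9 from 137255327 to 137273542, plus strand) moved least by TMM, though not under mitochondrial scaling (-0.63 on the log2 scale, against -0.34 for SUPT4H1 and -0.48 for NELFE). It was at 163, 158 and 157 CPM with DMSO and at 171, 172 and 172 CPM with AZD4573, with means of 159 ± 3.50 and 171 ± 0.240 CPM (SD, n = 3). The groups did not overlap, and the treated libraries again differed by less than the error of counting. The log2 fold change was 0.10 (standard error 0.0391, 95% confidence interval 0.02 to 0.19; edgeR, adjusted p = 0.0266). The call was lost without DMSO replicate 2 or 3 or AZD4573 replicate 2 or 3, with log2 fold changes of 0.09, 0.08, 0.10 and 0.10 and edgeR adjusted p values from 0.0698 to 0.151. With library size as the only scaling the log2 fold change was 0.00 (edgeR, adjusted p = 0.984), and the call of NELFB thus depended on these choices.

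Levels of different genes were compared per kilobase of the reference (MANE Select) transcript. With DMSO the order was SUPT5H (73.5 ± 3.27 CPM per kb), NELFB (62.8 ± 1.38), NELFE (51.5 ± 1.17), NELFCD (49.4 ± 1.298), NELFA (35.5 ± 1.43) and SUPT4H1 (31.8 ± 1.59; all SD, n = 3). No neighbours in this order overlapped, although the lowest NELFE library (50.7 CPM per kb) lay just above the highest NELFCD library (50.6 CPM per kb). With AZD4573, NELFB came first at 67.5 ± 0.0945 CPM per kb and NELFA last at 12.6 ± 1.48 CPM per kb (SD, n = 3). There SUPT5H (63.0 ± 2.87) and NELFE (61.7 ± 1.80) overlapped, as did NELFCD (43.5 ± 1.27) and SUPT4H1 (42.0 ± 0.136 CPM per kb; SD, n = 3). These levels assume that each gene is transcribed as its reference isoform. Those of NELFCD and SUPT4H1 also depend on how reads in shared exons were divided, which was not tested. Other genes share 94.9% (NELFCD) and 98.1% (SUPT4H1) of their reference exon bases, and the shares and sums below include these genes.

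NELF works as a complex with equal numbers of each subunit, and the make-up of its transcripts was compared within each library. NELFA took 17.1%, 18.5% and 17.9% of the summed CPM per kb of the 4 NELF genes with DMSO, against 7.79%, 6.49% and 6.16% with AZD4573. Its share thus went from 17.8% ± 0.720 to 6.81% ± 0.863 (SD, n = 3), with no overlap between groups. The share of NELFE went from 25.9% ± 0.580 to 33.3% ± 0.675, that of NELFB from 31.5% ± 0.686 to 36.4% ± 0.300 and that of NELFCD from 24.8% ± 0.654 to 23.5% ± 0.477 (SD, n = 3). A larger share of NELFB and NELFE here is in part the smaller share of NELFA, since the 4 shares sum to 100%. The summed level of the 4 genes went from 199 ± 0.0515 to 185 ± 1.68 CPM per kb. The sum of the DSIF genes was 105 ± 3.10 CPM per kb with DMSO and 105 ± 2.73 CPM per kb with AZD4573 (SD, n = 3), with SUPT5H lower and SUPT4H1 higher by about the same amount per kb. The sums were computed by TMM only. With library size as the only scaling, SUPT5H was still lower and SUPT4H1 higher, with log2 fold changes of -0.33 and 0.30. Under mitochondrial scaling both were lower, with log2 fold changes of -0.96 (SUPT5H) and -0.34 (SUPT4H1).

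**Figure D2:**
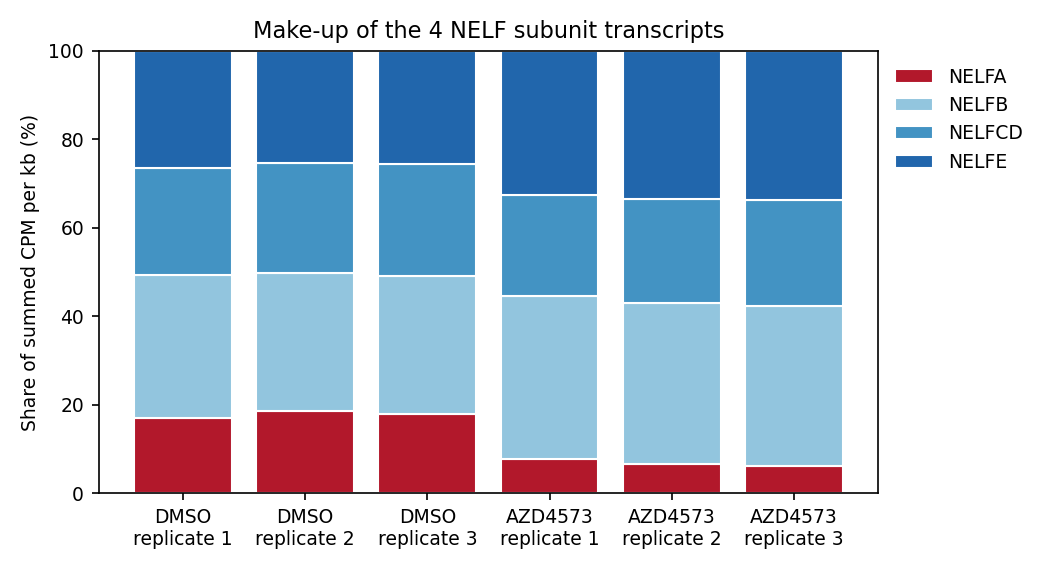
Stacked bars give the share (y axis, %) of each NELF subunit in the summed CPM per kb of the 4 NELF genes, with 1 bar for each library. The NELFA part is 17.1% to 18.5% in the DMSO bars and 6.16% to 7.79% in the AZD4573 bars.

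A ratio of counts within a library does not depend on how libraries are scaled, and the test of a ratio is the test of whether a pair of members changed unequally. The log2 ratio of NELFA to NELFE went from 0.07 ± 0.0899 to -1.69 ± 0.207 (SD, n = 3), a 3.38-fold lower ratio. Against SUPT4H1, NELFB, NELFCD and SUPT5H, the ratio of NELFA was 3.74-, 3.04-, 2.49- and 2.43-fold lower. The groups overlapped in none of these 5 ratios. Within DSIF, the log2 ratio of SUPT4H1 to SUPT5H went from -2.51 ± 0.113 to -1.89 ± 0.0709 (SD, n = 3), a difference of 0.62.

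Over all 15 pairs, the groups did not overlap in 14, where 78.9% of the 106047 ratios of a member to any other gene tested did not overlap either. In each of these 14, the two-sided exact permutation test gave p = 0.1, the smallest that 3 against 3 libraries allow (adjusted p = 0.107 over the 15 pairs by the Benjamini-Hochberg method), so that this test cannot reach 0.05 here. The exception was NELFCD against SUPT5H. Their log2 ratio was -1.29 ± 0.0266 with DMSO and -1.25 ± 0.0956 with AZD4573 (SD, n = 3; exact permutation p = 0.9), and the difference of 0.04 ranged from -0.02 to 0.07 with each library left out in turn. It was negative without AZD4573 replicate 3.

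**Figure D3:**
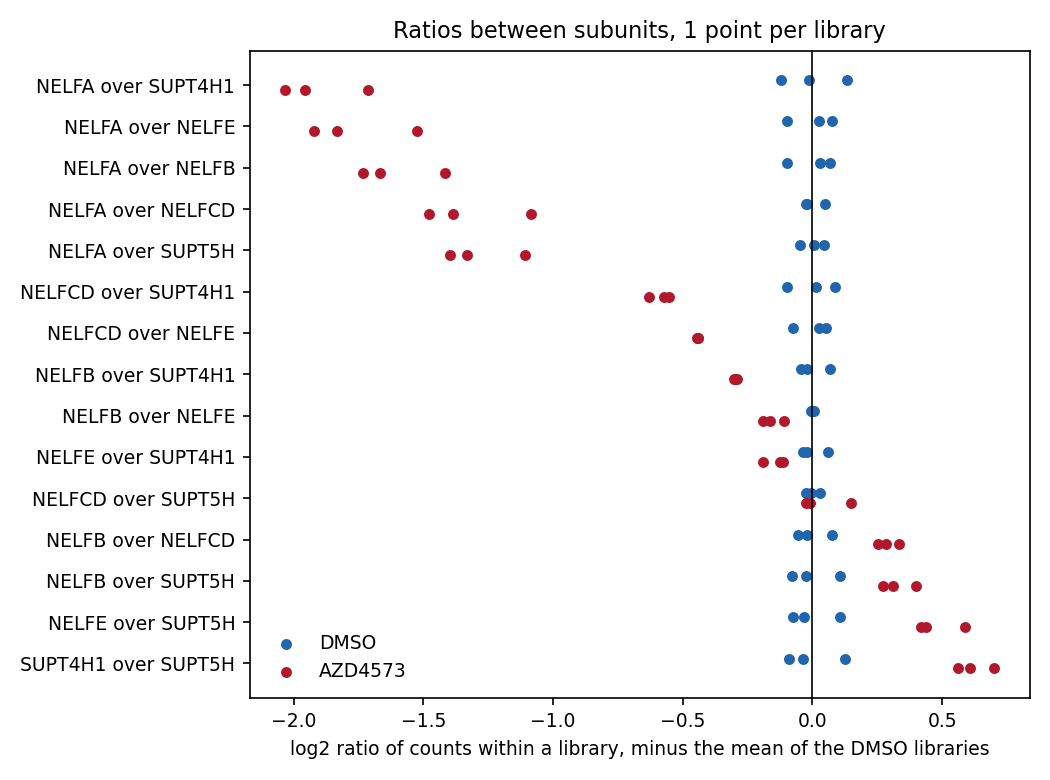
Each row is a pair of members and each point a library (blue, DMSO; red, AZD4573). The x axis is the log2 ratio of their counts minus the mean of the DMSO libraries. The 5 ratios with NELFA shift furthest, by -1.28 to -1.90, and only NELFCD over SUPT5H overlaps.

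The direction of the 3 rises depended on the scaling, while NELFA, NELFCD and SUPT5H were lower under each scaling tried. The 13 mRNAs encoded by mitochondrial DNA, which has its own polymerase, made up 3.04%, 3.12% and 3.22% of the counts with DMSO and 4.67%, 4.98% and 4.91% with AZD4573. Scaled to these 13 mRNAs, all 6 members were lower, with log2 fold changes of -2.23 (NELFA), -0.96 (SUPT5H), -0.92 (NELFCD), -0.63 (NELFB), -0.48 (NELFE) and -0.34 (SUPT4H1), each with an adjusted p of at most 0.000287 by edgeR. By this scaling 11878 of the 17678 genes tested were called lower and 2144 higher. Over all genes, the median log2 fold change was 0.03 by TMM and -0.71 by this scaling, a shift of -0.74. Relative to that median, NELFA was at -1.52, SUPT5H at -0.25, NELFCD at -0.21, NELFB at 0.08, NELFE at 0.23 and SUPT4H1 at 0.37 under both scalings. Neither scaling was tested against an amount per cell, and in bulk libraries fewer cells and less RNA per cell cannot be told apart.

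**Figure D4:**
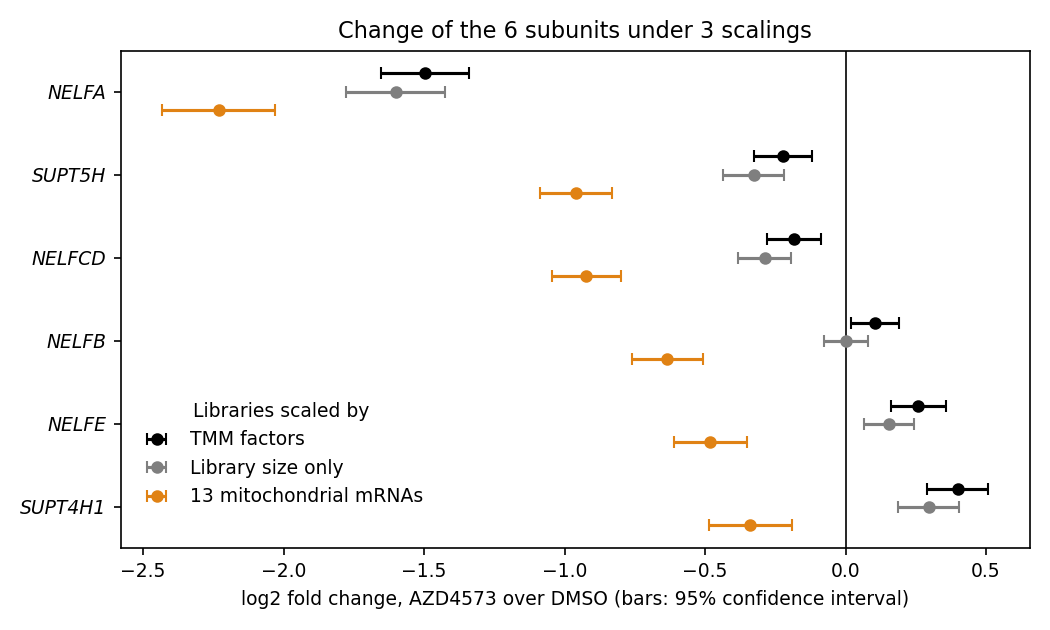
Log2 fold change of AZD4573 over DMSO (x axis) for the 6 members with libraries scaled by TMM factors (black), by library size only (grey) or to 13 mitochondrial mRNAs (orange), with bars for the 95% confidence interval. NELFA is below -1.3 under each scaling, whereas NELFE and SUPT4H1 change from positive to negative in orange and NELFB lies at 0.00 in grey.

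Of 3 tested genes that start beside a member on the other strand, none was called in the direction of that member by TMM. Under mitochondrial scaling all 3 were lower, as the members were, where 11878 of the 17678 genes tested were lower too. The starts here are the outermost annotated ones, which are the same as the RefSeq start used above for NELFB only. The outermost NELFA start, at 2041903, lies 92 bases from that of C4orf48 on the other strand. It is not in the NELFA window used above (2008925 to 2009224), so that C4orf48 does not start beside the printed NELFA stretch. C4orf48 went from 15.2 ± 0.291 to 19.5 ± 1.20 CPM (SD, n = 3), or a log2 fold change of 0.36 (adjusted p = 0.000235, edgeR) that turned to -0.37 under mitochondrial scaling. NELFE starts 78 bases from SKIC2 (named SKIV2L in the count table), an RNA helicase gene that was at 43.6 ± 3.95 and 42.0 ± 1.37 CPM (SD, n = 3; log2 fold change -0.05, adjusted p = 0.473, edgeR). The outermost SUPT5H start, at 39436156, lies 207 bases from that of RPS16, and it too is outside the window used above (39445332 to 39445631). RPS16, a ribosomal protein gene, had a log2 fold change of 0.47 (edgeR, adjusted p = 1.17e-06), a value that turned to -0.26 under mitochondrial scaling. The non-coding ENSG00000285091, which starts 39 bases from NELFCD, was not tested, with 1 to 6 counts per library.

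Other genes of pause release and elongation were counted in 3 lists written from general knowledge. Of 19 tested genes of P-TEFb, the 7SK complex that restrains it, BET proteins and the super elongation complex, 13 were lower and 5 higher (edgeR, adjusted p under 0.05), where 37.4% of all genes tested were lower and 37.3% higher. The median log2 fold change was -0.30 against 0.03 for all genes. Only 3 of the list were higher with library size only and 2 under mitochondrial scaling, where 5741 and 2144 of 17678 genes tested were. HEXIM1, the P-TEFb inhibitor, fell most, from 117 ± 4.09 to 10.4 ± 0.361 CPM (SD, n = 3). CDK9 itself went from a mean of 65.4 ± 1.55 to 122 ± 1.32 CPM (SD, n = 3), and its partner CCNT1, cyclin T1, rose most, with log2 fold changes of 0.90 and 1.19 that stayed positive, at 0.16 and 0.45, under mitochondrial scaling.

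Of 16 genes of the PAF1 complex and other elongation factors, 8 were lower and 6 higher, against the same shares of all genes, with a median of -0.19. Under mitochondrial scaling 15 were lower and 0 higher, where 11878 of the 17678 genes tested were lower and 2144 higher. IWS1, a partner of the histone chaperone SPT6, had the largest fall (log2 fold change -1.89), and TCEA2, an elongation factor of the TFIIS family, the largest rise (0.62, or -0.12 under mitochondrial scaling). Of 13 genes listed here as RNAP2 subunits by their names (POLR2A to POLR2M), 8 were lower and 4 higher, or 2 higher without DMSO replicate 2, with a median of -0.32. Under mitochondrial scaling 13 were lower and 0 higher, against those same counts of all genes. With library size only 2 were higher, where 5741 of all genes were. POLR2A, the largest subunit, fell from 321 ± 31.9 to 127 ± 3.41 CPM (SD, n = 3), or a log2 fold change of -1.34, and POLR2G had the largest rise (0.36, or -0.38 under mitochondrial scaling). NELFA (-1.50) lay below all 13 RNAP2 subunits, of which POLR2A came nearest, and the difference between them was not tested.

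**Figure D5:**
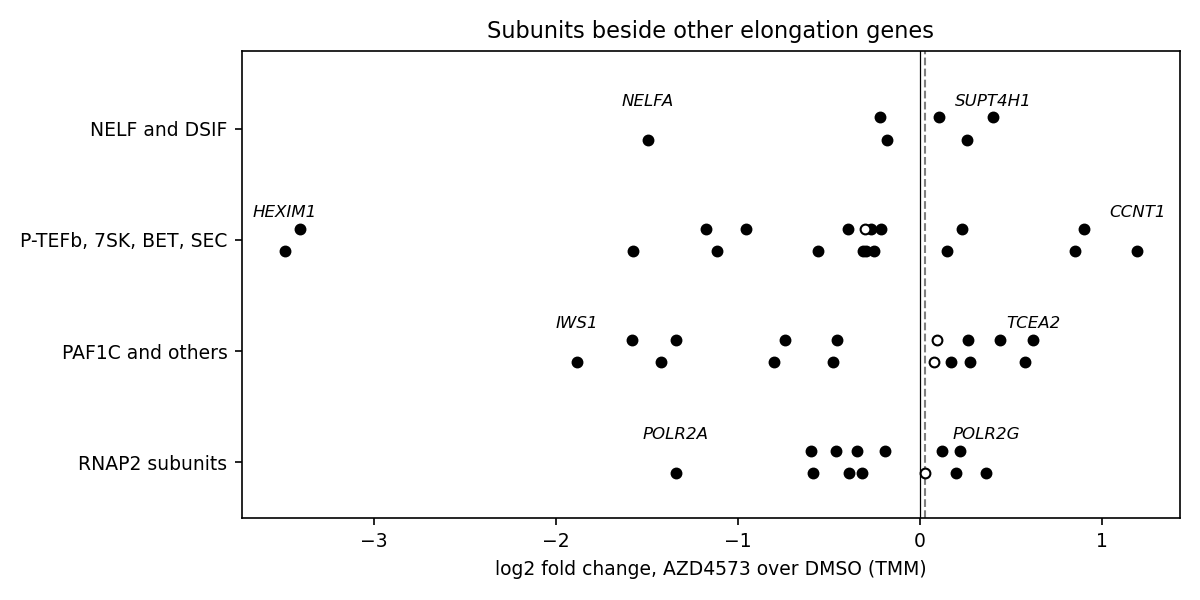
Log2 fold change by TMM (x axis) of the 6 members and of 3 lists of elongation genes, with 1 point per gene, filled at an adjusted p under 0.05 (edgeR) and open otherwise. The dashed line is the median of all genes, 0.03. NELFA stands apart from the other members at -1.50, below every RNAP2 subunit tested and within the range of the other 2 lists, and the rises of the other members turn negative under mitochondrial scaling.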

How the data were processed

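Bulk RNA-seq covered 3 DMSO and 3 AZD4573 libraries of H9 cells, grouped by their labels. Per the supplemental methods and processing notes, the authors trimmed reads with cutadapt 2.3, aligned to GRCh38 by STAR 2.7.8a and obtained gene-level expected counts from RSEM 1.3.3, whose default parameters ignore strand. The deposited expected counts are whole numbers, not normalized. The labels describe poly(A) selection and the supplemental methods rRNA depletion.

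Genes were filtered by edgeR 4.0.16 (filterByExpr, minimum count 10), TMM-scaled and tested by quasi-likelihood in R 4.3.3, with Benjamini-Hochberg adjustment. The 5 reporter rows had 0 counts and were left out. CPM are TMM-normalised, and errors are SD over libraries. Exon overlaps and positions came from GENCODE release 44 on GRCh38 and promoter windows from RefSeq. Named besides the members were the genes that overlap them or start within 1000 bases, pseudogenes, CDK9, the largest fall and rise of each list, and the 3 genes with the most similar profile. Alternatives were RLE factors, library size only, mitochondrial scaling, other filters, DESeq2 1.42.0, a replicate block, other call thresholds and each library left out. The test was checked on simulated data with 200 genes changed. Most genes were called in the real libraries, so that this check cannot show how the test does there. Members and lists were chosen with earlier results of these data known. Pairs of libraries within a group were not copies of each other (chi-square of their counts over its degrees of freedom 5.29 to 19.4). Intervals and limits cover counting error only where they rest on a count of 0.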

Additional observations from a re-analysis of the deposited data

How the results depend on the processing

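At an adjusted p under 0.05, NELFA, NELFCD and SUPT5H were called lower under all 13 other scalings, filters, tools and subsets of libraries (NELFA, log2 fold change -2.23 to -1.44). NELFCD and SUPT5H were not called when a 1.5-fold change was also required by TMM, the only scaling to which that rule was applied. Under mitochondrial scaling their log2 fold changes of -0.92 and -0.96 went beyond 1.5-fold. Scaled to the mitochondrially encoded mRNAs, NELFB (-0.63), NELFE (-0.48) and SUPT4H1 (-0.34) reversed, 6 members were lower and 0 higher, and over all genes 11878 were lower and 2144 higher; the median of all genes fell by 0.74. NELFB lost its call with library size only (0.00086, adjusted p = 0.984), without a filter (0.063, adjusted p = 0.357) and with DESeq2 (0.087, adjusted p = 0.0789), and ranged from 0.082 to 0.11 with each library left out. The cause was not tested. The median of all genes moved by -0.10 with library size only, by 0.09 without a filter and by 0.11 with DESeq2, the last 2 over more genes. NELFCD over SUPT5H ranged from -0.017 to 0.070 with each library left out. Its negative value was without AZD4573 replicate 3.

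A 1.5-fold change, a stricter rule by construction, was also required with the TMM fit only. By it 1 member was lower and 0 higher whether p was adjusted or not. With the adjusted p it called 4191 of all genes lower and 4012 higher, and with the unadjusted one 4231 and 4077. By both of these rules 6 P-TEFb and super elongation genes were lower and 3 higher. Of PAF1 complex and other factors 6 were lower and 1 higher, and of RNAP2 subunits 3 were lower and 0 higher. Under mitochondrial scaling 2 P-TEFb and super elongation genes were higher, 15 PAF1 complex and other factors were lower and 0 higher, and 13 RNAP2 subunits were lower and 0 higher. By that scaling 11878 of all genes were lower and 2144 higher. With library size only, 3 genes of the first list and 2 RNAP2 subunits were higher, where 5741 of all genes were. With each library left out, 2 to 4 RNAP2 subunits were higher, with 2 without DMSO replicate 2.

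The replicate numbers name the libraries only: same-numbered libraries deviated from their group means with correlations of -0.0208, 0.0417 and 0.0316 over 17678 genes, so that no pairing was seen. With the replicate number as a block, the log2 fold changes were -1.50 (NELFA), 0.11 (NELFB), -0.18 (NELFCD), 0.26 (NELFE), 0.40 (SUPT4H1) and -0.22 (SUPT5H), and no call of a member changed. The members had at least 1508 counts per library. The exact permutation test of a ratio cannot go below p = 0.1 with 3 libraries a group.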

Other observations

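For each member, the 3 genes with the most similar profile were sought among 9048 genes with at least 10 CPM on average, by the root mean square distance of log2 CPM over the 6 libraries after centring. Such profiles mostly follow the difference between the groups, and many genes share a given difference. Those nearest to NELFA were SP140L (distance 0.0197), ZNF318 (0.0204) and TMEM170B (0.0299). Those nearest to SUPT5H were FAM219A (0.0194), ZC3H18 (0.0220) and MFSD8 (0.0233), and those nearest to NELFCD were SGPL1 (0.0176), USP44 (0.0177) and UNC50 (0.0181). For NELFE they were SSRP1 (0.0131), which encodes a subunit of the histone chaperone FACT, PPP1R7 (0.0137) and HSPA9 (0.0144). For SUPT4H1 they were ARL2 (0.0182), RABAC1 (0.0248) and NUDT5 (0.0249), and for NELFB GLOD4 (0.0107), TRAP1 (0.0135) and CTDNEP1 (0.0137). Between members, NELFCD and SUPT5H were nearest (0.0604) and NELFA and SUPT4H1 farthest apart (0.956).

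Tested genes whose promoters hold the motifs of the members moved in both directions. Of 11429 tested genes with a RefSeq promoter window, 599 hold AAGATGGC, with a median log2 fold change of -0.19 against -0.06 over all 11429, and edgeR called 52.6% of them lower and 28.4% higher (adjusted p under 0.05), where it called 43.4% of all 11429 lower and 35.9% higher. The 609 genes with at least 1 match of GCATGCGC had a median of -0.21 (52.4% lower, 28.4% higher). The 284 with 2 or more matches, as NELFB and NELFCD have, had a median of -0.15 (50% lower, 28.9% higher). The 424 genes with 2 or more matches of CCGGAAG had a median of -0.12 (47.6% lower, 32.5% higher). Motifs not chosen for a pair of members had medians of -0.10 (GGGCGGGG, 4259 genes), -0.10 (GATTGG, 2249 genes) and 0.01 (TATAAA, 687 genes). A median below that of all 11429 was thus not particular to the chosen motifs. By TMM, SUPT5H (-0.22) lay near the median of the AAGATGGC genes and NELFA (-1.50) below it, NELFCD (-0.18) near the median of the GCATGCGC genes and NELFB (0.10) above it, and NELFE (0.26) and SUPT4H1 (0.40) above that of the CCGGAAG genes, although NELFB, NELFE and SUPT4H1 were lower under mitochondrial scaling. These are descriptions with no test.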
